A study of Mus musculus with 12 samples.

Results

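The comparison described here is the difference between the 48 h responses of 2 mouse genotypes, taken for every gene as the change from 0 h to 48 h in FNcKO minus the change from 0 h to 48 h in WT. It uses all 12 of the 12 libraries of the series, 3 in each of 4 groups. The design text calls the 3 libraries of a group biological triplicates. Lens fiber cells were taken out of the eyes of living mice, which leaves the lens capsule with lens epithelial cells attached, and RNA was taken from these remnants either directly (0 h) or 48 h later. WT mice were wild type C57BL/6 animals. FNcKO mice, conditional knockouts of fibronectin, had a mix of C57BL/6, 129 and FVB/N in their background. All mice were 2 months old. Genotype and strain background coincide, so a difference between the groups cannot be told apart as one or the other. A strain difference that is a constant factor at both times cancels in the difference of the log2 responses, and one that alters the response itself does not. Not given in the sources used here were the Cre driver, the deleted exons and the number of lenses in a library.

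After cataract surgery, lens epithelial cells that stay on the capsule divide, lay down matrix and can turn into contractile cells resembling myofibroblasts, which clouds the capsule behind an implanted lens. Fibronectin is a secreted glycoprotein that cells assemble into fibrils through integrin receptors. Such fibrils serve as a scaffold on which other matrix proteins, among them type I collagen and the latent form of TGF-beta, are deposited.

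Library totals ran from 8368160 to 10862573 counts. Crystallins, the bulk proteins of fiber cells, took 12.9% to 24.7% of the counts of the 0 h libraries and 1.47% to 11.9% of those of the 48 h libraries, with overlap between the genotypes at each time. The fibronectin gene Fn1 (chr1:71585473-71653234, mm10) stood at 19.0, 23.1 and 15.5 CPM (counts scaled to libraries of 1000000 counts, with a correction for library composition) in WT replicates 1, 2 and 3 at 0 h and at 1515, 528 and 979 at 48 h, and values of a group are given in that order throughout. In FNcKO it stood at 16.8, 9.81 and 8.32 CPM at 0 h and 146, 298 and 688 at 48 h. The libraries of the genotypes overlapped at both times, and whole-gene counts include exons outside a deleted part, so they do not check the label. Lens epithelial markers were present throughout: Pax6, a transcription factor of the eye, ran from 294 to 521 CPM over the 12 libraries. In bulk RNA, fewer cells of a type and less RNA per cell cannot be told apart.

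No gene differed between the genotypes in its 48 h response at the threshold used. In edgeR's quasi-likelihood test 0 of 14560 tested genes (0%) had a Benjamini-Hochberg adjusted p under 0.05, and the lowest adjusted p was 0.186, shared by Serinc2 and Mxra8. At an unadjusted p under 0.05 there were 735 genes (5.05% of those tested), 366 with a higher and 369 with a lower response in FNcKO. limma-voom also called 0 genes, with 648 at an unadjusted p under 0.05. DESeq2 called 28 of 13709 genes with an adjusted p (0.204%), 7 higher and 21 lower in FNcKO. The 20 genes with the lowest p in edgeR over both directions are all among these 28.

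Over all tested genes the log2 difference of responses had a median of −0.01, with the middle 50% of genes between −0.29 and 0.31. The 95% intervals given here are Wald intervals from the fit, one gene at a time and with no adjustment for the number of genes. The median gene's interval reached 0.81 to each side on the log2 scale, a factor of 1.75. For 5826 genes (40% of those tested) the whole interval lay within a 2-fold difference in either direction. For the others, apart from 96 genes that have no interval because a group had only 0 counts, a difference larger than 2-fold lies within the interval.

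The responses themselves were large in both genotypes. In WT 4745 genes passed (32.6%), 2775 higher (19.1%) and 1970 lower (13.5%) at 48 h, and in FNcKO 3611 passed (24.8%), 2169 higher (14.9%) and 1442 lower (9.9%). Scaling to total counts shifts these splits to 3888 higher and 1211 lower in WT and to 3408 and 727 in FNcKO. The 2841 genes that passed in both were 59.9% of the WT genes and 78.6% of the FNcKO genes, and 2840 of them went the same way. Another 1904 genes passed in WT but not in FNcKO. Of these, 1790 had the same sign in FNcKO and 295 had an unadjusted p under 0.05 in the test of the difference itself. For the 770 genes that passed in FNcKO but not in WT these counts were 731 and 115. Most genes that passed in a single genotype thus had no such p, although a larger share did than the 5.05% of all tested genes. Passing in a single genotype is drawn from the same values as the difference, so this larger share is a description. Across the 14560 genes the log2 responses of the genotypes had a Pearson r of 0.859 and a Spearman rho of 0.789. Genes within a library share its depth and cell composition and are not independent replicates, so these are descriptions.

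**Figure D1:**
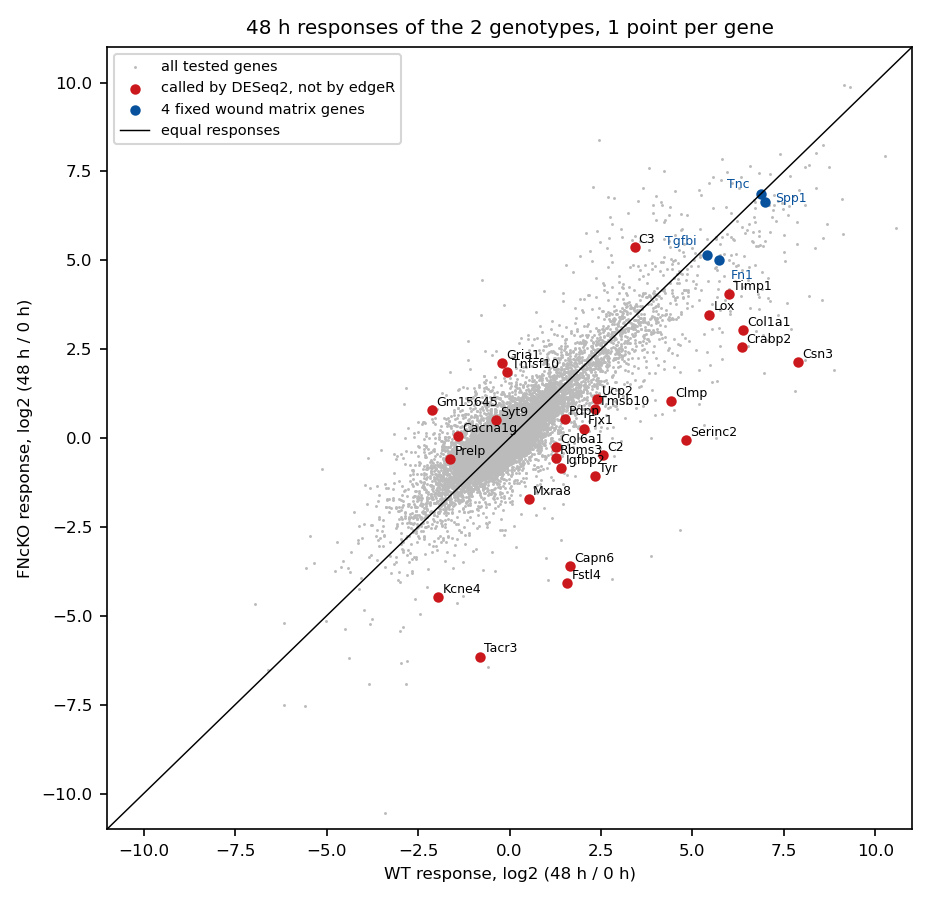
Each gray point is 1 of the 14560 tested genes, with its log2 change from 0 h to 48 h in WT on the horizontal axis and in FNcKO on the vertical axis, and the line marks equal responses. Red points are the 28 genes called by DESeq2 and not by edgeR, most of them below the line, and blue points are Fn1, Tnc, Tgfbi and Spp1, which lie near it.

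Among genes that rose strongly, the FNcKO response tended to be the smaller one, by little. Of 1019 genes up at least 4-fold on average over the genotypes, 602 (59.1%) had a lower response in FNcKO, with a median difference of −0.18 log2, beside 50.9% and −0.01 over all tested genes. Of 308 genes down at least 4-fold, 188 (61.0%) had a difference above 0, with a median of 0.25. The first median rested on single libraries: with WT 48 h replicate 1 left out it was 0.071, with FNcKO 48 h replicate 1 left out 0.06, and with FNcKO 48 h replicate 3 left out −0.46.

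The difference of responses was measured most closely in 10 genes with the narrowest intervals among those that changed at least 4-fold in the same direction in both genotypes. Mvp, the main protein of the vault particle, rose from 29.4, 30.1 and 26.3 to 157, 164 and 139.5 CPM in WT and from 30.0, 26.4 and 26.7 to 119, 105 and 160.4 CPM in FNcKO. The difference of its responses was log2 −0.22 (95% interval −0.72 to 0.29), so a 2-fold difference lies outside the interval. Lmna, which encodes the nuclear lamins A and C, rose from 43.0, 32.2 and 38.4 to 205, 195 and 278 CPM in WT and from 50.5, 42.2 and 40.9 to 171, 279.8 and 290.1 CPM in FNcKO, with a difference of log2 −0.10 (95% interval −0.76 to 0.55). Srxn1, a sulfiredoxin that repairs oxidised peroxiredoxins, gave log2 0.16 (95% interval −0.50 to 0.81). Nfkb2, which encodes the NF-kappa-B subunit p100, had the highest value of the 10 at log2 0.47 (95% interval −0.12 to 1.05), and Tagln the lowest. Cnn2, Sbno2, B4galt5, Ehd4 and Prkcdbp had values between −0.85 and 0.46. Of these 10 genes, those above 0 were Nfkb2, Sbno2 and Srxn1.

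The largest departures from equal responses are described next. They were picked as the 10 lowest unadjusted p-values in each direction of this same contrast, so their values are a description. Their adjusted p ran from 0.186 to 0.627 in edgeR. For the list members described after them the lowest adjusted p was 0.5996. Genes with a lower FNcKO response came in 3 forms. Some rose in WT with no rise of like size in FNcKO, some started higher in FNcKO at 0 h, and some fell in FNcKO and did not pass in WT.

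Serinc2 (chr4:130253497-130275586), a multipass membrane protein of the serine incorporator family, stood at 1.10, 0.408 and 0.723 CPM in WT at 0 h and at 30.9, 9.92 and 23.6 at 48 h. In FNcKO it stood at 7.27, 3.69 and 14.6 CPM at 0 h and 9.40, 6.44 and 8.67 at 48 h. The WT libraries did not overlap between the times and those of FNcKO did, and the FNcKO libraries lay above WT at 0 h and below WT at 48 h. Of all tested genes, 8.68% were higher and 7.95% lower in FNcKO without overlap at 0 h (16.6% in all), and 4.48% and 5.25% at 48 h (9.74% in all). The difference of responses was log2 −4.87 (95% interval −6.55 to −3.20). Serinc2 rose 28.3-fold in WT (edgeR, BH-adjusted p = 0.000123), while its FNcKO log2 change was −0.05 (edgeR, BH-adjusted p = 0.956). The WT fold starts from few counts, as 3 counts correspond to 0.301 to 0.361 CPM in the WT 0 h libraries. For the difference of its responses limma-voom gave a BH-adjusted p of 0.980.

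Type I collagen alpha 1, Col1a1 (chr11:94936270-94951856), the main fibrillar collagen chain of scars, rose in both genotypes and to different levels. It went from 2.11, 4.69 and 5.06 to 524, 185 and 277 CPM in WT and from 9.50, 3.81 and 5.16 to 45.1, 50.2 and 56.6 CPM in FNcKO. The genotypes overlapped at 0 h, and at 48 h every FNcKO library lay below every WT library. The difference of responses was log2 −3.35 (95% interval −4.68 to −2.03). Between the genotypes at 48 h, Col1a1 was 6.49-fold lower in FNcKO (edgeR, BH-adjusted p = 0.0265), in a comparison where 0.199% of tested genes were lower.

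The complement component C2 (chr17:34862602-34882100), a protease of the classical pathway, rose in WT from 2.81, 3.77 and 3.01 to 25.5, 20.1 and 11.4 CPM. In FNcKO it was at 1.57, 1.73 and 2.73 CPM at 0 h and 2.22, 1.09 and 0.952 at 48 h, below every WT library at both times. Its difference of responses was log2 −3.05 (95% interval −4.30 to −1.79). Rbms3, an RNA-binding protein, rose in WT from 9.53, 7.04 and 9.28 to 29.0, 17.7 and 15.3 CPM and was at 13.6, 15.6 and 12.8 and then 8.77, 10.8 and 8.78 CPM in FNcKO, with a difference of log2 −1.83 (95% interval −2.62 to −1.04). Col6a1, a chain of the beaded filament collagen VI, rose in WT from 34.3, 38.7 and 31.8 to 66.2, 120.1 and 65.6 CPM and was at 78.6, 56.9 and 52.1 and then 60.1, 45.5 and 52.6 CPM in FNcKO, with a difference of log2 −1.51 (95% interval −2.23 to −0.79). Both genes were higher in every FNcKO library than in every WT library at 0 h and lower at 48 h.

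Mxra8 (chr4:155839680-155844102), an adhesion protein of the immunoglobulin superfamily, fell in FNcKO and did not pass in WT, where its log2 change was 0.52 (edgeR, BH-adjusted p = 0.124). It was at 84.3, 60.2 and 96.6 CPM in WT at 0 h and 131, 114 and 101 at 48 h, and at 118, 92.9 and 143 and then 44.1, 41.4 and 22.9 CPM in FNcKO. In neither genotype did the 0 h and 48 h libraries overlap, with 48 h above 0 h in WT and below it in FNcKO. In all, 21 tested genes (0.144%) had this pattern, Rbms3 and Tyr among them, and 5 (0.0343%) the reverse. The difference was log2 −2.23 (95% interval −2.99 to −1.47). The neurokinin receptor gene Tacr3 fell in FNcKO from 12.5, 13.2 and 7.31 to 0.423, 0 and 0 CPM, where the last 3 values stand for 4, 0 and 0 counts. In WT it stood at 1.61, 5.61 and 2.05 and then 1.14, 2.04 and 2.08 CPM, and the difference was log2 −5.33 (95% interval −7.91 to −2.74). Fstl4, a follistatin-like secreted protein, fell in FNcKO from 6.71, 4.96 and 3.44 to 0.528, 0.328 and 0 CPM (5, 3 and 0 counts at 48 h) and stood at 3.51, 1.12 and 3.13 and then 15.4, 4.28 and 3.42 CPM in WT, with a difference of log2 −5.66 (95% interval −8.09 to −3.23). At so few counts the intervals of Tacr3 and Fstl4 are several log2 units wide.

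In other genes the genotypes differed at 0 h and overlapped at 48 h. Igfbp2, a secreted carrier of insulin-like growth factors, stood at 19.3, 17.3 and 21.3 CPM in WT and 117, 98.3 and 154 in FNcKO at 0 h, 6.38-fold higher in FNcKO (edgeR, BH-adjusted p = 0.00259, with 0.0755% of tested genes higher). It rose in WT to 38.6, 61.8 and 53.5 CPM. In FNcKO it stood at 103, 58.6 and 45.4 CPM at 48 h, overlapping with WT at 48 h and with FNcKO at 0 h. Its FNcKO change was log2 −0.84, with an adjusted p up to 0.165 in edgeR when 1 library was left out. The difference was log2 −2.25 (95% interval −3.10 to −1.39). The potassium channel subunit gene Kcne4 fell in both genotypes, from 34.4, 34.6 and 34.8 to 13.6, 9.82 and 3.42 CPM in WT and from 104, 60.1 and 97.1 to 3.80, 4.81 and 3.07 CPM in FNcKO, with a difference of log2 −2.54 (95% interval −3.69 to −1.39). Without WT 48 h replicate 3 Kcne4 passed, at log2 −2.92 (edgeR, BH-adjusted p = 0.0278), while Igfbp2 passed with FNcKO 48 h replicate 1 left out, at −2.66 (0.0308).

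**Figure D2:**
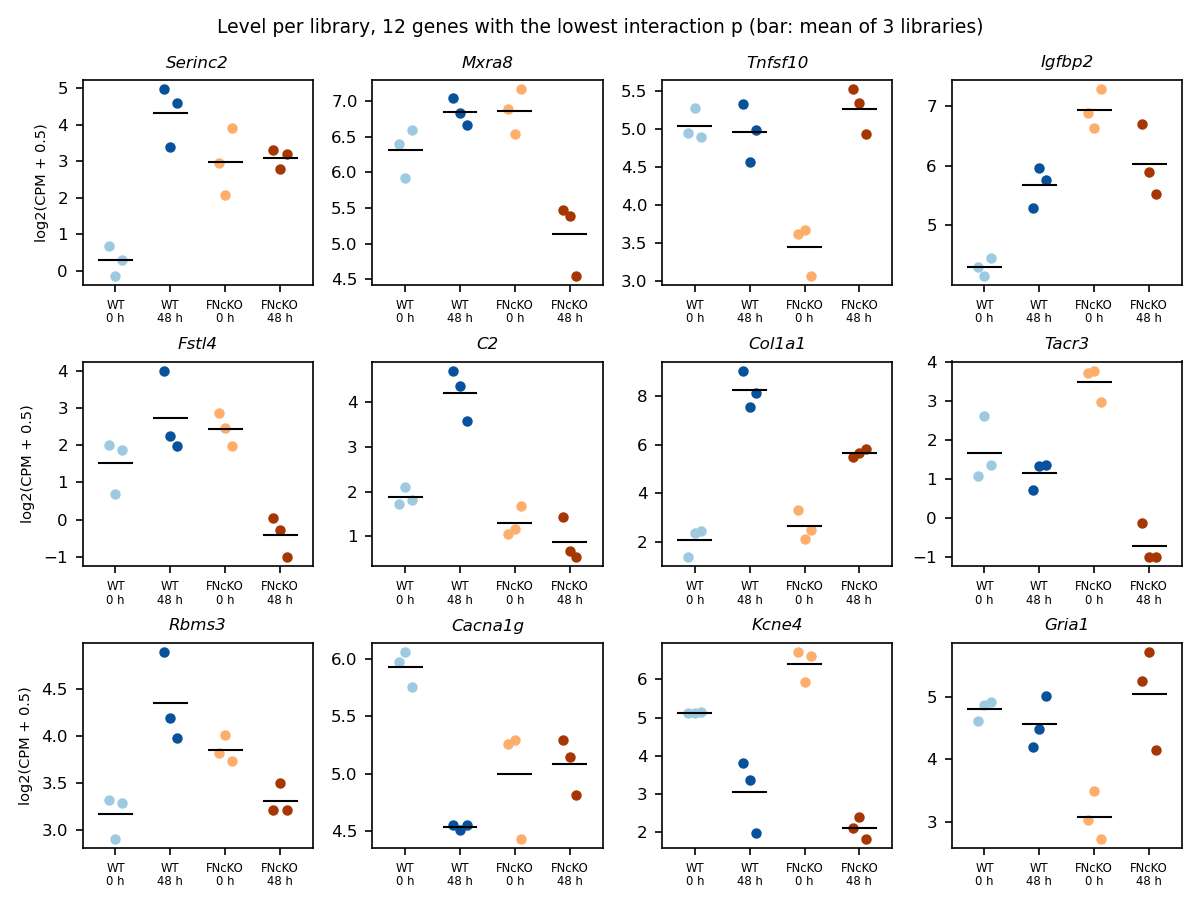
Levels of the 12 genes with the lowest p of the difference of responses, as log2(CPM + 0.5) on the vertical axis, with 1 point for each of the 12 libraries and a bar for the mean of the 3 libraries of a group. The WT bars and the FNcKO bars change by different amounts or in different directions between 0 h and 48 h, as in Serinc2, which goes up in WT and not in FNcKO. Each panel has its own vertical range.

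Of the 10 genes with a higher FNcKO response, 8 were lower in every FNcKO library than in every WT library at 0 h (7.95% of all tested genes). A low FNcKO level at 0 h raises the difference by which these genes were picked, so this count is a description only. The complement component C3 (chr17:57203973-57228136), on which all complement pathways converge, rose from 55.0, 128 and 81.8 to 1090.0, 778 and 961 CPM in WT and from 30.7, 20.8 and 18.4 to 718, 872 and 1290.5 CPM in FNcKO. The FNcKO libraries lay below WT at 0 h (3.78-fold lower, edgeR, BH-adjusted p = 0.0397, with 0.0687% of tested genes lower) and overlapped with WT at 48 h. The difference of responses was log2 1.95 (95% interval 0.99 to 2.90).

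Tnfsf10, the death receptor ligand TRAIL, had the same shape without a WT response. It was at 30.4, 38.3 and 29.4 CPM in WT at 0 h and 39.7, 23.2 and 31.2 at 48 h, and rose in FNcKO from 11.7, 12.2 and 7.89 to 45.5, 40.2 and 30.1 CPM, with a difference of log2 1.91 (95% interval 1.18 to 2.65). The glutamate receptor subunit gene Gria1 rose in FNcKO from 7.71, 10.7 and 6.17 to 37.5, 51.9 and 17.3 CPM and was at 23.9, 28.9 and 29.9 and then 17.8, 22.0 and 31.6 CPM in WT, with a difference of log2 2.32 (95% interval 1.26 to 3.38). In both genes the FNcKO libraries lay below WT at 0 h and overlapped with WT at 48 h.

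Cacna1g, a T-type calcium channel subunit, fell in WT from 62.4, 66.2 and 53.5 to 22.9, 22.3 and 22.9 CPM and was at 37.8, 38.8 and 21.1 and then 38.7, 34.8 and 27.6 CPM in FNcKO, with a difference of log2 1.47 (95% interval 0.81 to 2.12). Lrrn2, Astn2 and Mlc1 also fell in WT and did not pass in FNcKO, with differences of 1.05, 1.37 and 1.16. Bst1, an ectoenzyme that uses NAD, fell in both genotypes, from 134, 110.2 and 184 to 17.0, 25.5 and 22.6 CPM in WT and from 7.83, 8.31 and 11.6 to 5.49, 2.51 and 5.5 CPM in FNcKO, with a difference of log2 1.69 (95% interval 0.82 to 2.56). Its FNcKO libraries lay below WT at both times. Syt9, a synaptotagmin, stood at 107, 108 and 125 and then 91.5, 81.2 and 88.7 CPM in WT and rose in FNcKO from 59.4, 75.8 and 64.1 to 99.6, 85.0 and 99.4 CPM, with a difference of log2 0.89 (95% interval 0.45 to 1.33). The unnamed transcript Gm15645 fell in WT from 1.81, 4.18 and 3.98 to 1.05, 0.389 and 0.830 CPM and was at 5.37, 5.42 and 8.61 and then 6.76, 10.05 and 16.6 CPM in FNcKO, with a difference of log2 2.90 (95% interval 1.45 to 4.35). At 48 h it was 14.5-fold higher in FNcKO (edgeR, BH-adjusted p = 0.00483), in a comparison where 0.0412% of tested genes were higher.

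Of 32 tested genes of the fibrillar and matricellular matrix, 20 rose in WT and 16 in FNcKO (19.1% and 14.9% of all tested genes). None passed for the difference of responses, 8 had an unadjusted p under 0.05 with a lower FNcKO response (2.53% of all tested genes did) and 1 with a higher one (2.51%). The median difference was −0.41 log2 beside −0.01 over all tested genes, with 10 members above 0 and 22 below (49.1% and 50.9% over all tested genes). At 48 h the FNcKO libraries of 13 members lay below all WT libraries without overlap, as did those of 5.25% of all tested genes.

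Most members at an unadjusted p under 0.05 are chains and cross-linkers of collagen. Besides Col1a1 and Col6a1 they include Lox, the lysyl oxidase that cross-links collagen and elastin, which rose from 2.51, 2.65 and 2.05 to 128, 104 and 87.9 CPM in WT and from 2.91, 1.85 and 1.43 to 14.9, 21.6 and 33.6 CPM in FNcKO. The 48 h libraries did not overlap, the difference of responses was log2 −1.99 (95% interval −2.97 to −1.0), and at 48 h Lox was 4.56-fold lower in FNcKO (edgeR, BH-adjusted p = 0.00375). Col5a2, a chain of the collagen that regulates fibril width, rose from 1.10, 0.612 and 1.08 to 24.9, 25.8 and 16.5 CPM in WT and from 0.783, 1.15 and 2.15 to 5.71, 7.43 and 7.40 CPM in FNcKO, with a difference of log2 −2.22 (95% interval −3.39 to −1.06). Postn, the matricellular protein periostin, rose in WT from 4.21, 12.6 and 14.2 to 69.8, 47.4 and 52.3 CPM and was at 6.15, 9.93 and 11.3 and then 13, 15.9 and 8.04 CPM in FNcKO, with a difference of log2 −2.01 (95% interval −3.22 to −0.81). Col3a1, the second main fibrillar collagen of scars, overlapped between the genotypes at 48 h, with a difference of log2 −2.18 (95% interval −4.13 to −0.23). Loxl1 and Col6a2 gave −1.17 and −1.14.

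Other matrix genes had intervals that include 0. Tnc, the matricellular protein tenascin C, rose from 7.12, 10.7 and 7.59 to 1003, 404 and 1554 CPM in WT and from 7.83, 8.31 and 8.89 to 422, 1254 and 1216 CPM in FNcKO, with a difference of log2 −0.01 (95% interval −1.47 to 1.45). For the integrin ligand osteopontin, Spp1, the difference was log2 −0.34 (95% interval −1.75 to 1.08). For Tgfbi, a matrix protein induced by TGF-beta, it was log2 −0.25 (95% interval −1.20 to 0.70), and for Fn1 itself log2 −0.70 (95% interval −2.33 to 0.93). The Fn1 value was −0.29 without WT 48 h replicate 1 and −1.47 with FNcKO 48 h replicate 3 left out. The intervals of these 4 genes include both 0 and a 2-fold difference, so equal responses are not shown. Type I collagen alpha 2, Col1a2, whose product joins that of Col1a1 in the same triple helix, was at 292, 250.4 and 349.7 and then 375, 344 and 378 CPM in WT. In FNcKO it rose from 152, 204 and 189.9 to 243, 288 and 304 CPM. Its difference of responses was log2 0.31 (95% interval −0.22 to 0.85), and its FNcKO libraries lay below WT at both times. The member with the only higher FNcKO response at an unadjusted p under 0.05 was Fbn2, a fibrillin of elastic microfibrils and of the zonule that holds the lens. It fell in WT, did not pass in FNcKO, and had the highest value of the list, log2 1.00 (95% interval 0.22 to 1.78). The summed level of the 9 pigment cell markers described below also differed between the genotypes at 48 h (193 to 504 CPM in WT, 22.9 to 72.2 in FNcKO), and its part in the matrix values was not tested.

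**Figure D3:**
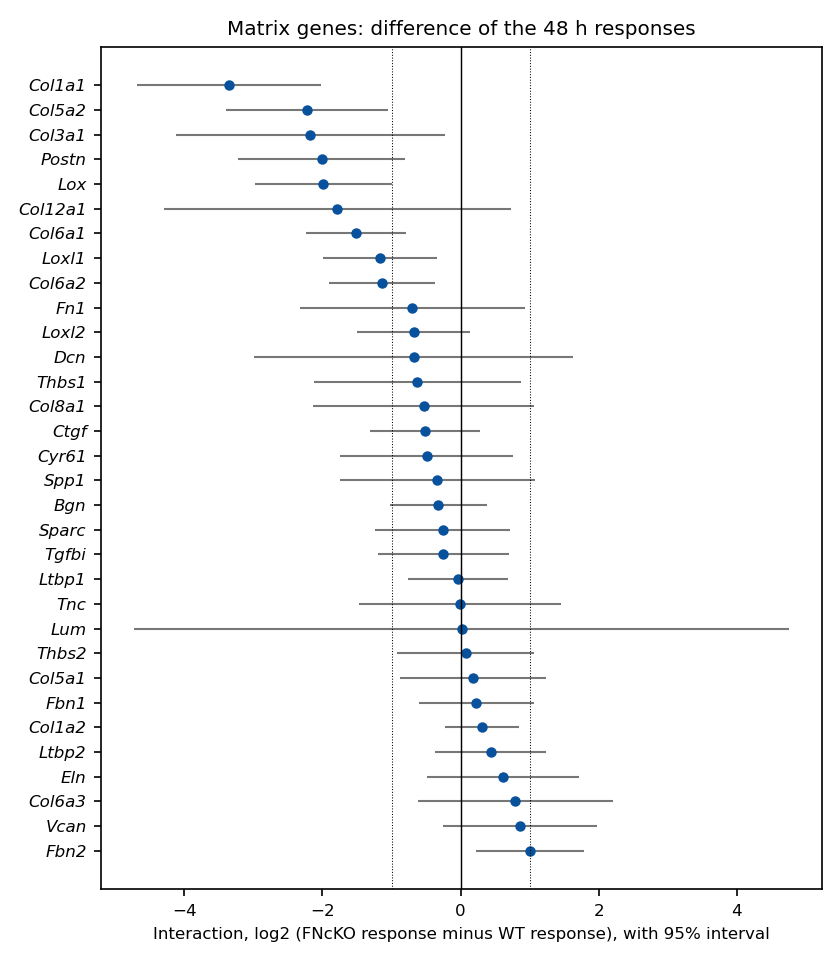
Difference of the 48 h responses for the 32 tested matrix genes, as log2 (FNcKO response minus WT response) on the horizontal axis, with points for the estimate and lines for the 95% interval of each gene. Collagen genes such as Col1a1 and Col5a2 lie furthest to the left, while Tnc lies at 0, and dotted lines mark a 2-fold difference in each direction.

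Of the smooth muscle type cytoskeleton 18 genes were tested, 12 of which rose in WT and 8 in FNcKO. None passed for the difference, and 3 had an unadjusted p under 0.05, all lower (0 higher). Over all tested genes 19.1% rose in WT, 14.9% rose in FNcKO and 2.53% had such a p with a lower response. The median was −0.33, or −0.35 over the 17 members with a count in every group, with 14 of 18 below 0 (50.9% of all tested genes). Without WT 48 h replicate 3 it was −0.085. Tagln, which encodes the actin-binding protein transgelin of smooth muscle and myofibroblasts, rose from 8.63, 14.5 and 7.23 to 157, 168 and 180.4 CPM in WT and from 8.05, 8.19 and 10.2 to 64.6, 64.3 and 81.1 CPM in FNcKO, with no overlap at 48 h. Its difference was log2 −1.06 (95% interval −1.74 to −0.38). Acta2, the smooth muscle actin that marks myofibroblasts, gave log2 −0.53 (95% interval −1.61 to 0.54).

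TGF-beta drives matrix and contractile genes in many wounds, and its pathway genes had values on both sides of 0. Of 30 tested members, 1 had an unadjusted p under 0.05 with a higher and 4 with a lower FNcKO response (2.51% and 2.53% over all tested genes). Their median was −0.09, or 0.049 without both 0 h libraries numbered 1, with 13 members above 0 and 17 below (49.1% and 50.9% over all tested genes). Members with a lower response are described here and the higher one is not, so the values that follow show 1 side only. Grem1, a secreted antagonist of BMPs, rose from 2.21, 1.94 and 3.13 to 1817, 584 and 359 CPM in WT and from 3.69, 1.62 and 2.58 to 109, 69.9 and 218 CPM in FNcKO. The 48 h libraries did not overlap, and the difference was log2 −2.93 (95% interval −4.98 to −0.88). The ligand gene Tgfb3 rose in WT from 29.8, 22.9 and 25.5 to 74.7, 45.5 and 49.8 CPM and was at 32.3, 45.2 and 49.6 and then 40.1, 51.2 and 35.1 CPM in FNcKO, with a difference of log2 −1.13 (95% interval −1.82 to −0.43).

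Integrin genes, which encode the receptors for fibronectin and other matrix, had no member at an unadjusted p under 0.05 among 17 tested, and a median of 0.12. That median was −0.05 without WT 48 h replicate 1, and with replicate 2 or 3 of FNcKO at 0 h left out it was −0.051 or −0.052. Itga5 encodes the alpha chain of the main fibronectin receptor and gave log2 0.12 (95% interval −1.14 to 1.38). Itgav and Itgb1, chains of several receptors that bind fibronectin, gave log2 0.13 (95% interval −0.66 to 0.92) and log2 −0.27 (95% interval −1.28 to 0.74). Itgb3, a partner of the alpha v chain, had the lowest p of the list at log2 −1.55 (95% interval −3.55 to 0.44). Genes of the basement membrane and lens capsule had a median of 0.24 over 22 tested members (−0.016 without WT 0 h replicate 3). There were 15 above 0 and 7 below (49.1% and 50.9% over all tested genes), and 1 at an unadjusted p under 0.05 (5.05% over all).

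Among 19 tested matrix proteases and inhibitors 1 had an unadjusted p under 0.05 (5.05% over all tested genes). The median was −0.24 (−0.33 over the 18 with a count in every group, and −0.64 without FNcKO 48 h replicate 3). Timp1, an inhibitor of matrix metalloproteinases, rose from 4.11, 3.77 and 6.51 to 404, 229 and 279.9 CPM in WT and from 22.8, 17.3 and 16.8 to 182, 298 and 467 CPM in FNcKO. It was higher in every FNcKO library at 0 h and overlapped at 48 h, with a difference of log2 −1.94 (95% interval −2.96 to −0.91). Of 72 named genes, 25 overlap another entry in the files, among them Timp1 (Syn1), Tagln (Pcsk7), Astn2 (Trim32), Fstl4 (Gm11186), Cryab (Hspb2), Nfkb2 (Psd) and Pax6 (Pax6os1). The labels name a stranded library kit but not how strand was used in counting, so reads of such partners cannot be told apart here.

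Inflammatory genes rose in both genotypes with wide errors. Of 29 tested cytokines, chemokines and acute phase genes, 28 rose in WT and 27 in FNcKO. Over all tested genes 19.1% rose in WT and 14.9% in FNcKO, and 5.05% had an unadjusted p under 0.05 for the difference. For the difference, 2 had an unadjusted p under 0.05 with a higher FNcKO response (C3 and the macrophage growth factor Csf1) and 1 with a lower one (Il1b), and the median was −0.67, or −0.73 over the 25 members with a count in every group. Csf1 rose from 38.3, 46.9 and 38.8 to 178, 187 and 107 CPM in WT and from 28.2, 27.0 and 17.5 to 166, 138 and 174 CPM in FNcKO, with a difference of log2 0.78 (95% interval 0.10 to 1.47). The cytokine gene Il1b rose in WT from 1.00, 1.12 and 1.20 to 111, 21.7 and 16.3 CPM and was at 1.90, 1.5 and 9.75 and then 8.24, 17.4 and 27.6 CPM in FNcKO, with a difference of log2 −3.42 (95% interval −6.34 to −0.50). Its highest value was in WT 48 h replicate 1.

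The monocyte attractant Ccl2 rose from 2.91, 1.94 and 2.89 to 136, 181 and 130.1 CPM in WT and from 3.58, 5.89 and 6.02 to 185, 157 and 217 CPM in FNcKO, overlapping at 48 h, with a difference of log2 −0.67 (95% interval −1.4 to 0.05). The neutrophil attractant Cxcl1 had 0 counts in all WT libraries at 0 h and stood at 31.1, 12.1 and 6.23 CPM in WT and 8.35, 6.99 and 24.6 in FNcKO at 48 h. Il6, a cytokine of the acute phase, had 0 counts in all 0 h libraries and stood at 5.04, 2.33 and 3.42 and 0.317, 2.73 and 4.86 CPM at 48 h. No difference of folds is given for genes with 0 counts in a group. General leukocyte markers (Ptprc, Laptm5, Coro1a and Cd53), summed, ran from 79.4 to 257 CPM in WT and from 46.3 to 139 in FNcKO at 48 h, against 12.1 to 31.2 and 7.27 to 17.2 at 0 h. The highest of these sums was in WT 48 h replicate 1, the library with the highest Il1b, and the part of leukocytes in these values was not tested. Without that library the median of the cytokine list was −0.13, and with FNcKO 48 h replicate 3 left out it was −1.10.

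Of 22 tested interferon response genes, 19 rose in each genotype (19.1% in WT and 14.9% in FNcKO over all tested genes). For the difference, 3 had an unadjusted p under 0.05, all with a higher FNcKO response (2.51% over all genes). Their list had a median of 0.30 with 15 above 0 (49.1% over all). The antiviral GTPase gene Mx2 rose from 1.4, 2.45 and 1.81 to 6.00, 9.53 and 7.47 CPM in WT and from 0.335, 0.577 and 0.287 to 4.44, 2.62 and 7.40 CPM in FNcKO, with a difference of log2 1.52 (95% interval −0.01 to 3.04), an interval that just reaches 0 although the quasi-likelihood p is under 0.05. The guanylate-binding protein gene Gbp2 rose from 11.5, 15.3 and 13.5 to 64.8, 68.7 and 40.4 CPM in WT and from 9.73, 7.62 and 5.59 to 61.0, 48.3 and 56.9 CPM in FNcKO, with a difference of log2 0.74 (95% interval 0.02 to 1.46). In both genes the FNcKO libraries lay below WT at 0 h and overlapped at 48 h. The median was −0.079 without FNcKO 48 h replicate 1.

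Of 30 tested cell cycle genes, 28 rose in WT and 29 in FNcKO (19.1% and 14.9% of all tested genes). None had an unadjusted p under 0.05 for the difference (5.05% over all). The median was −0.16, from −0.48 without WT 48 h replicate 2 to 0.075 without FNcKO 48 h replicate 1. Aurkb, a mitotic kinase, had the lowest p of the list at log2 −1.03 (95% interval −2.68 to 0.61). Mki67, which encodes the proliferation marker Ki-67, was at 411, 86.1 and 366 CPM in WT and 251, 541 and 439.5 in FNcKO at 48 h, with a difference of log2 −0.14 (95% interval −1.89 to 1.61). WT 48 h replicate 2 was the lowest of these libraries, and 1 of the 30 intervals lay within a 2-fold difference.

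Immediate early genes had a median of −0.44 over 20 tested members, and of −0.20 without WT 48 h replicate 2. Below 0 were 15 members (50.9% over all tested genes), and 2 had an unadjusted p under 0.05 (5.05% over all). The growth factor induced transcription factor Egr2 rose from 1, 0 and 0 counts to 15.1, 20.2 and 7.06 CPM in WT and from 0.224, 0.693 and 0.430 to 6.44, 7.86 and 7.72 CPM in FNcKO, with a difference of log2 −4.18 (95% interval −7.42 to −0.94). Nr4a1, an orphan nuclear receptor, stood at 29.7, 48.9 and 3.73 CPM in FNcKO at 0 h, with replicate 3 far below the others. Its difference was log2 −2.26 (95% interval −4.29 to −0.23). Egr1 and Fos, a pair of early transcription factors, gave log2 −0.70 (95% interval −1.45 to 0.05) and log2 0.11 (95% interval −1.31 to 1.52).

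Of 16 genes of the unfolded protein and ATF4 response, 14 lay below 0 (50.9% of all tested genes), with a median of −0.48 (−0.01 over all) and 1 at an unadjusted p under 0.05 (5.05% over all). That was Calr, which encodes the chaperone calreticulin and rose from 309, 383 and 401 to 1082, 1017 and 919.9 CPM in WT and from 400.1, 487 and 584 to 809.7, 874 and 917 CPM in FNcKO, with a difference of log2 −0.64 (95% interval −1.23 to −0.06). Hspa5, the chief chaperone of the endoplasmic reticulum, gave log2 −0.47 (95% interval −1.06 to 0.12). Of 20 glycolysis and hypoxia genes, 18 lay below 0 (50.9% over all), with a median of −0.42 and 2 at an unadjusted p under 0.05 (5.05% over all), the enzymes Pgam1 (−0.51) and Gpi1 (−0.56). In this list 1 gene rose and 3 fell in WT, and 1 rose and 4 fell in FNcKO. Over all tested genes 19.1% rose and 13.5% fell in WT, and 14.9% rose and 9.9% fell in FNcKO. Over 23 other settings the median stayed between −0.55 and −0.34 for the first list and between −0.49 and −0.33 for the second.

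Of 16 tested crystallins 5 fell in WT and 4 in FNcKO (13.5% and 9.9% of all tested genes). The median difference was 0.16 (0.17 over the 15 with a count in every group), and none had an unadjusted p under 0.05. The median ran from −1.0 without FNcKO 48 h replicate 1 to 0.76 without FNcKO 0 h replicate 3, the libraries of their groups with the highest crystallin share. Crygf, the member with the lowest p, had 0 counts in all FNcKO libraries at 48 h, and no fold is given. Cryab, the small heat shock protein of the lens, gave log2 0.17 (95% interval −1.83 to 2.16), an interval that takes in large differences in both directions. Other fiber cell genes had a median of 0.03 over 19 genes and no member at an unadjusted p under 0.05, with Hmgn3 the lowest p (−0.29). Leaving out FNcKO 48 h replicate 1 gave −0.62, and leaving out WT 48 h replicate 2 gave 0.41. The 16 lens epithelial genes had a median of −0.06 (0.15 without FNcKO 48 h replicate 3). Their values ran from −0.97 to 0.65, 6 above 0 and 10 below (49.1% and 50.9% over all tested genes). An unadjusted p under 0.05 was found in 3 (5.05% over all), 1 with a higher and 2 with a lower FNcKO response. The lower ones are described here and the higher one is not, so the values that follow show 1 side only. The water channel gene Aqp1 stood at 525, 465 and 599.6 and then 428, 525 and 439 CPM in WT and fell in FNcKO from 1234, 1152 and 1638 to 692, 612 and 497, with a difference of log2 −0.97 (95% interval −1.60 to −0.34). The gap junction gene Gja1 was at 719, 721 and 1007 and then 817, 571 and 524 CPM in WT and fell in FNcKO from 805, 782 and 754 to 430.2, 345 and 341, with a difference of log2 −0.71 (95% interval −1.37 to −0.05). For Pax6 the difference was log2 −0.24 (95% interval −0.76 to 0.27), and for Foxe3, the transcription factor of the lens epithelium, log2 −0.04 (95% interval −2.09 to 2.02). Cdh1, which encodes E-cadherin, fell in both genotypes and gave log2 −0.18 (95% interval −1.04 to 0.67). Regulators of epithelial to mesenchymal transition had a median of −0.04 over 15 genes (0.041 without FNcKO 0 h replicate 2), and growth factors and their receptors 0.04 over 24 (−0.15 without FNcKO 0 h replicate 3). Neither list had a member at an unadjusted p under 0.05. The lowest p belonged to Snai2 (−1.05), a transcription factor that represses cadherin genes, and to Pdgfa (−0.87), a growth factor for mesenchymal cells.

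**Figure D4:**
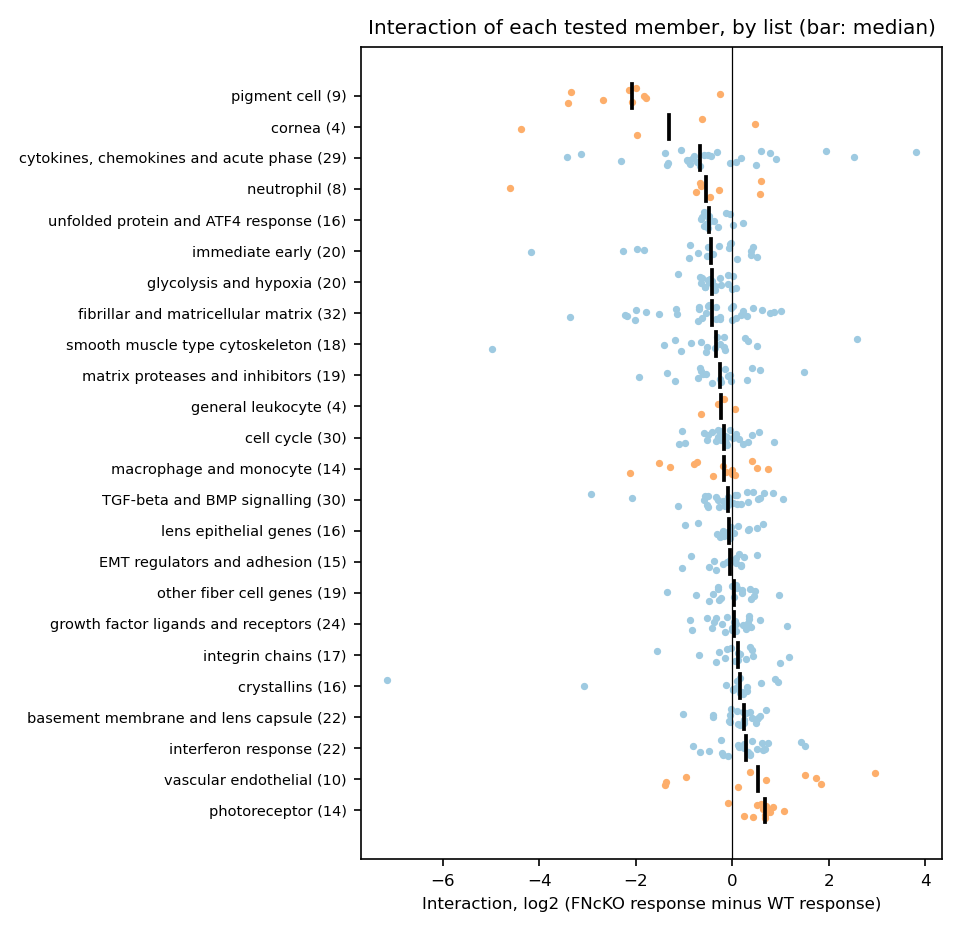
Each point is a tested gene, placed by its difference of responses in log2 units on the horizontal axis, and each row is a gene list with its number of tested members, blue for processes and orange for markers of cells other than lens epithelium. Black bars are medians, which lie between −0.67 and 0.30 for all process lists and lowest for the pigment cell markers at −2.08. Lists with 1 or no tested gene are left out.

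Markers of pigment cells had the lowest median of the lists, −2.08 beside −0.01 over all tested genes. Pigment cells of the iris and ciliary body lie next to the lens and are not lens epithelium. They make melanin with tyrosinase (Tyr) and the related enzymes Tyrp1 and Dct inside melanosomes, under the transcription factor Mitf. All 9 markers had a lower response in FNcKO, 6 of them at an unadjusted p under 0.05 (2.53% of all tested genes) and none at an adjusted p under 0.05 in edgeR. Tyr was among the 28 genes called by DESeq2. At 48 h the FNcKO libraries of 8 of the 9 lay below all WT libraries (5.25% of all tested genes).

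The 250 bases before the RefSeq gene start (GRCm38.p6) are shown for the 4 of these markers that hold the M-box, TCATGTG, a motif that MITF binds and that includes the E-box letters CATGTG. Both strands were searched, so a match reads TCATGTG or CACATGA, and matches are in capitals. The windows are chr7:87493513-87493762 (minus strand) for Tyr, chr4:80833963-80834212 (plus strand) for Tyrp1, chr14:118052247-118052496 (minus strand) for Dct and chr2:125067877-125068126 (plus strand) for Slc24a5. The Tyr window does not adjoin the Tyr span printed below, which comes with the counts, so these sources place the gene start differently.
Tyr: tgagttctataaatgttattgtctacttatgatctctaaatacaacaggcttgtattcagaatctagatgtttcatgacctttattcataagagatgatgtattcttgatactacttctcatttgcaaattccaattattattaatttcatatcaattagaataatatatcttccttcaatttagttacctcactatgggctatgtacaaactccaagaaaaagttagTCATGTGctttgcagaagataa
Tyrp1: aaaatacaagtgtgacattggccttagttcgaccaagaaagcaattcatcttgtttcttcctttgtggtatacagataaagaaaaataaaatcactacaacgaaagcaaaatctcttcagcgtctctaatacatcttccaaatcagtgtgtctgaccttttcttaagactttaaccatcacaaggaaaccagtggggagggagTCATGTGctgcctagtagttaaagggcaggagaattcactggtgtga
Dct: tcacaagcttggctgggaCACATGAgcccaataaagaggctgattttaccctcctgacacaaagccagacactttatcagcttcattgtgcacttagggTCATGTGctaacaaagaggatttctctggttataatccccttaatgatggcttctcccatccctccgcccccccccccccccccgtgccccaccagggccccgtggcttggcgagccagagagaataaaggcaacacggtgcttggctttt
Slc24a5: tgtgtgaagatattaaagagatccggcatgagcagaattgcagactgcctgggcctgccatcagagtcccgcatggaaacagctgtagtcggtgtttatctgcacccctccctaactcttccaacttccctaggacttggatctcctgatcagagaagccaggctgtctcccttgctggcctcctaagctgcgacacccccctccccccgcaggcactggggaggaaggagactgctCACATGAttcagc
The motif was found in 1068 of 32851 windows of this length over all genes (3.25%). Of the 9 markers 6 matched the promoter table, and Oca2 and Mitf held no match. Pmel, Mlana and Slc45a2 were not matched. A match describes the letters in the window and is not a measured binding site.

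Tyr (chr7:87427405-87493411) rose in WT from 5.12, 8.36 and 5.78 to 60.7, 20.2 and 16.7 CPM and was at 6.15, 5.77 and 5.31 and then 5.18, 2.29 and 0.740 CPM in FNcKO. The genotypes overlapped at 0 h and not at 48 h, and the difference was log2 −3.41 (95% interval −5.20 to −1.61). Mitf rose in WT from 7.22, 9.39 and 7.23 to 43.1, 22.7 and 13.6 CPM and was at 7.27, 7.85 and 5.45 and then 6.23, 6.88 and 4.12 CPM in FNcKO, with a difference of log2 −1.99 (95% interval −3.11 to −0.87). Tyrp1 was at 57.3, 84.0 and 74.9 and then 149, 146 and 71.8 CPM in WT and fell in FNcKO from 42.1, 50.9 and 42.2 to 28.8, 18.6 and 6.98 CPM, with a difference of log2 −2.08 (95% interval −3.32 to −0.83). In all 3 genes WT went up or spread upward between the times, and FNcKO stayed or went down.

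Slc24a5, a cation exchanger of melanosomes, rose in WT from 3.31, 5.81 and 1.69 to 23.3, 14.5 and 8.20 CPM and was at 3.47, 2.54 and 2.58 and then 3.28, 3.71 and 1.27 CPM in FNcKO (log2 −2.14, 95% interval −3.69 to −0.58). Dct was at 52.7, 70.8 and 19.6 and then 131, 155 and 52.1 CPM in WT and at 21.4, 22.9 and 12.5 and then 14.4, 4.48 and 2.11 CPM in FNcKO (log2 −2.67, 95% interval −4.73 to −0.62). Pmel, the fibril protein of melanosomes, and Mlana gave −1.78 and −1.83, with intervals that include 0. Slc45a2, a melanosome transporter, rested on 0 to 16 counts a library. Oca2, a melanosome channel protein, was the exception: it fell from 98.0, 57.0 and 90.2 to 7.99, 11.5 and 3.74 CPM in WT and from 87.7, 56.9 and 68.3 to 6.55, 7.54 and 2.96 CPM in FNcKO, with a difference of log2 −0.24 (95% interval −1.44 to 0.95).

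The summed level of the 9 markers was 207 to 288 CPM in WT and 148 to 176 in FNcKO at 0 h, and 193 to 504 in WT and 22.9 to 72.2 in FNcKO at 48 h. The genotypes did not overlap at either time. The list median was below 0 in all 23 other settings, from −2.87 to −1.71. How much pigmented tissue each library held, and whether strain background bears on it, was not tested.

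**Figure D5:**
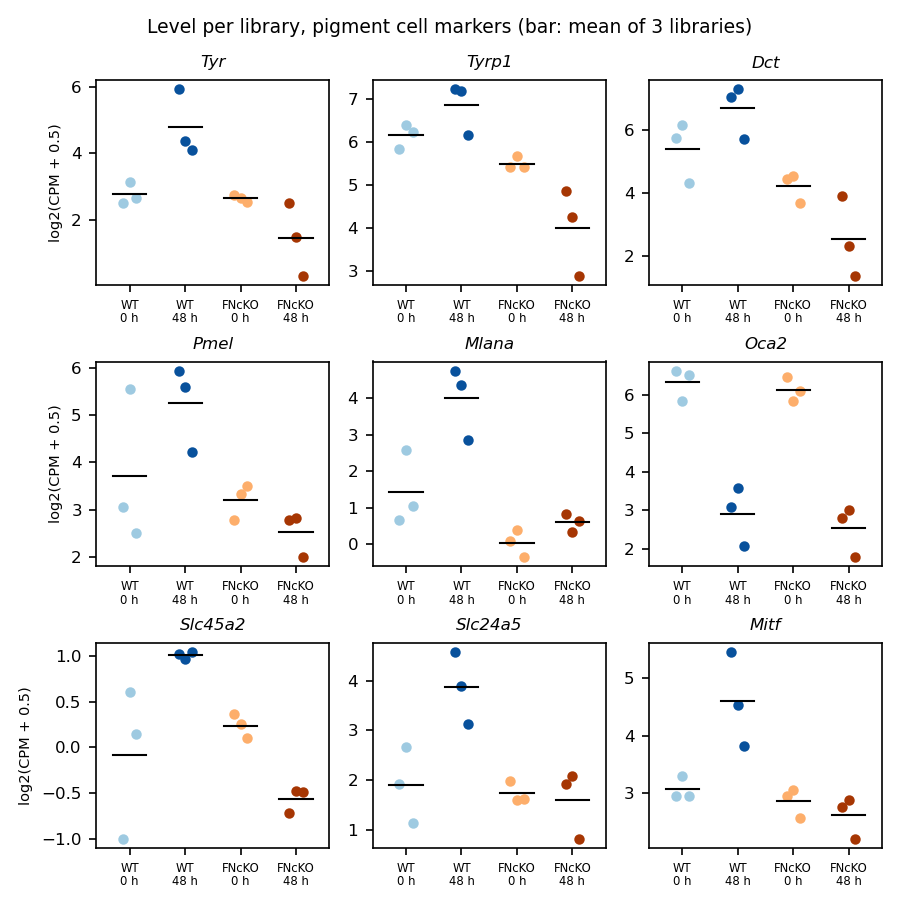
Levels of the 9 pigment cell markers as log2(CPM + 0.5) on the vertical axis, with 1 point for each of the 12 libraries and a bar for the mean of the 3 libraries of a group. At 48 h the FNcKO points lie below the WT points in all panels but Oca2, which goes down alike in both genotypes. Each panel has its own vertical range.

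Of 14 macrophage and monocyte markers 2 had an unadjusted p under 0.05 (5.05% over all tested genes), among them the complement gene C1qb (−1.51). Their median was −0.16, or −0.19 over the 13 with a count in every group (0.25 without WT 48 h replicate 1, over the list). Neutrophil markers had a median of −0.55 over 8 genes, or −0.45 over the 5 with a count in every group, and none at an unadjusted p under 0.05. Without WT 48 h replicate 1 that median was 0.56, and Retnlg, a secreted neutrophil protein with the lowest p of the list, stood at 4.47, 1.46 and 2.39 CPM in WT and 0.317, 0.328 and 1.69 in FNcKO at 48 h. The 4 general leukocyte markers had a median of −0.24, or 0.46 without WT 48 h replicate 1. Photoreceptor markers lay above 0 in 13 of 14 cases (49.1% over all tested genes) with a median of 0.68. Their summed level ran from 691 to 7626 CPM over the 12 libraries, none had an unadjusted p under 0.05, and the median was 0.031 without FNcKO 48 h replicate 1. Vascular endothelial markers had a median of 0.53 over 10 genes (−0.083 without FNcKO 48 h replicate 3), with Egfl7 the lowest p (−0.95). Corneal markers had −1.30 over the 4 tested. The summed level of all 7 listed was 742 to 1116 CPM in WT and 1783 to 2667 in FNcKO at 0 h. At 48 h it was 364 to 986 CPM in WT and 699 to 1347 in FNcKO, with overlap between the genotypes. Among the corneal ones the keratin gene Krt5 had an unadjusted p under 0.05 at up to 79 counts a library. The only erythroid gene tested, Alas2, gave −0.66 (0.60 without WT 48 h replicate 2), and none of 7 lymphocyte markers had enough counts to be tested.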

How the data were processed

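RNA sequencing gave whole-number counts per gene in 1 file per library for 12 libraries of mouse lens capsules with attached lens epithelial cells, 3 in each group. The authors' deposited files hold these counts for 24147 genes beside RPKM values, which were not used. Per the submitters' processing notes the tools were FastQC, Trim Galore 0.4.4, TopHat2 2.1.0, bedtools 2.17, SAMtools 1.4, HTSeq 0.6.1p1 and edgeR 3.16.5, and the build was mm10. Not given in the sources used here were the annotation release, the strand setting of counting and the treatment of reads that map to more than 1 place. The labels' protocols name both a TruSeq RNA kit and a stranded TruSeq kit. In a combined table of 9 count columns, 8 equal the file of their own library. The column named for WT 0 h replicate 1 holds the values of FNcKO 0 h replicate 1, and the files of the single libraries were used here. The sources alone do not settle which is right for WT 0 h replicate 1, and this library enters every WT response. In the levels of Igfbp2, Bst1 and Kcne4 given above, it lay with the other WT 0 h libraries and apart from FNcKO at 0 h. The combined column holds the FNcKO levels of these genes. They were picked from a contrast that includes this library. Without it, and without both 0 h libraries numbered 1, the count of genes past the threshold for the difference of responses was 0.

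Counts were fitted with edgeR 4.0.16 (R 4.3.3), with TMM scaling, the default filter on low counts (14560 genes kept), a quasi-likelihood test over all 12 libraries and Benjamini-Hochberg adjustment over all tested genes. DESeq2 1.42.0 and limma 3.58.1 (voom) were alternatives. Calls have an adjusted p under 0.05. CPM values are counts scaled to a TMM-corrected library of 1000000 counts. Where a group had only 0 counts no interval or fold is given. The edgeR script was tested on simulated counts, with known differences of responses given to genes above a floor on mean count. It recovered 12 of 100 genes with a 2-fold and 75 of 100 with a 4-fold difference, and made 7 false calls. Most 2-fold differences were thus missed in that simulation. The sample titles number the replicates without saying whether a number pairs libraries, and no pairing was used. Of 18 pairs of libraries with the same number, 4 had deviations from their group means correlated over 0.1 (range −0.47 to 0.29). With 3 libraries a group, such correlations do not show a pairing and cannot exclude one.

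The genes named are the 10 lowest p-values in each direction, the lowest p in each of 26 gene lists, a fixed set of wound, receptor and lens genes, and the 10 narrowest intervals among genes changed at least 4-fold in both genotypes. Other list members at an unadjusted p under 0.05 and the pigment cell markers were added. Some genes that this rule names are not reported here. The lists, the fixed genes and the comparison were chosen with earlier results of these data known. Depth was 8368160 to 10862573 counts a library, and 3 counts a library correspond to 0.286 to 0.430 CPM. Promoter sequences are from RefSeq (GRCm38.p6).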

Additional observations from a re-analysis of the deposited data

How the results depend on the processing

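Across 23 alternative settings, the 72 named genes gave 1656 values of the difference of responses, of which 63 in 19 genes had the other sign. None of these was past the threshold. The count of genes past it for the difference of responses, 0 in the report, was 28 with DESeq2 and 2 with the crystallin share as a covariate (Igfbp2 and Mxra8), and ran from 0 to 1 when 1 library was left out. In the fit with the replicate number as a block it was 1 (Serinc2). A pairing by number is neither stated nor shown, so that fit is a check only. The count at an unadjusted p under 0.05 ran from 465 to 1078 when 1 library was left out.

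For the genotypes at 0 h the count was 10 with total-count scaling, 130.0 with DESeq2, 7 with limma-voom, 38 with the crystallin covariate, 5 with the immune marker covariate, 2 without both 0 h libraries numbered 1, and 2 to 28 when 1 library was left out. At 48 h it was 122 with DESeq2, 11 with the immune covariate, 14 without both libraries, and 10 to 46 when 1 library was left out. For the WT response it was 1866 with the crystallin covariate and 2 with the immune covariate. For the FNcKO response it was 1129 with the crystallin covariate, 2 with the immune covariate, 2299 without both libraries, and 2232 to 4095 when 1 library was left out. The covariates themselves changed between the times without overlap in each genotype, so these fits cannot separate time from the covariate. Neutrophil markers, summed, were at 63.1 to 139 and then 3891 to 5954 CPM in WT, and 36.1 to 60.7 and then 2319 to 6305 in FNcKO. Most of this sum was Lcn2: the WT 48 h mean was 5264 CPM with it and 177 without.

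Of 575 list medians, 28 moved. Without a filter on low counts the corneal median was −0.64. Without both 0 h libraries numbered 1 it was −0.66, and that of TGF-beta genes 0.049. When 1 library was left out the medians ran from −2.87 to −1.71 (pigment), −4.09 to −0.46 (cornea), −0.052 to 0.30 (integrins), −1.10 to −0.13 (cytokines), −1.26 to 0.56 (neutrophil), −0.083 to 1.36 (endothelial), −1.64 to 0.60 (erythroid), −0.46 to −0.085 (smooth muscle), −0.24 to −0.0081 (TGF-beta), −0.079 to 0.47 (interferon), −0.62 to 0.41 (other fiber) and −0.64 to −0.11 (proteases). The cause of these changes was not tested. With 3 libraries a group, the precision is limited by the spread between libraries.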

Other observations

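Beside the genes described above, DESeq2 called a further set for the difference of responses, which edgeR did not. These genes were chosen after their values were seen, and none has an adjusted p under 0.05 in edgeR. Crabp2, which encodes a carrier of retinoic acid, rose 81.6-fold in WT and 5.92-fold in FNcKO, with a difference of log2 −3.79 (95% interval −5.80 to −1.77, edgeR, BH-adjusted p = 0.636). At 48 h Crabp2 was 8.20-fold lower in FNcKO (edgeR, BH-adjusted p = 0.0373). Ucp2, a carrier of the inner mitochondrial membrane, rose 5.27-fold in WT and 2.14-fold in FNcKO, with a difference of −1.30 (−1.95 to −0.65). Pdpn, the membrane glycoprotein podoplanin, rose 2.85-fold in WT and 1.44-fold in FNcKO, with a difference of −0.99 (−1.51 to −0.46). With 1 library left out the FNcKO changes of Pdpn and the proteoglycan gene Prelp lost their calls in some fits, at adjusted p up to 0.14 and 0.0805 in edgeR. Clmp, an adhesion molecule of the immunoglobulin superfamily, rose 21.2-fold in WT, and its FNcKO log2 change was 1.05 (edgeR, BH-adjusted p = 0.216).

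Tmsb10, a small protein that binds actin monomers, and Fjx1 started higher in FNcKO. At 0 h Tmsb10 was 3.06-fold and Fjx1 3.59-fold higher in FNcKO (edgeR, BH-adjusted p = 0.0283 for both), while at 48 h their differences between the genotypes were log2 0.08 and 0.09. The matrix proteoglycan gene Prelp fell 3.06-fold in WT and 1.51-fold in FNcKO, with a difference of 1.02 (0.49 to 1.55). Capn6, a member of the calpain family, fell in FNcKO from 13.1, 17.1 and 105.7 CPM in replicates 1, 2 and 3 to 8.14, 0.874 and 2.11, a log2 change of −3.60. FNcKO 0 h replicate 3 lay far above the others, and with it left out the change was −2.05 (edgeR, BH-adjusted p = 0.0534). It was −3.31 with FNcKO 48 h replicate 3 left out (edgeR, BH-adjusted p = 0.0759). In WT the log2 change of Capn6 was 1.65 (edgeR, BH-adjusted p = 0.182). For the casein gene Csn3 the interval of the difference reached from −12.07 to 0.58, although DESeq2 called it.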
